A study of Mus musculus with 18 samples.

Results

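Glycolysis and the hypoxia response were followed as a group of 36 genes in mouse myeloid cells that met a sterile object in the peritoneal cavity. The 36 genes were chosen by name, as 17 glycolytic enzymes and 19 other genes tied to glucose use or to the hypoxia-inducible factor (HIF), and each was read from 1 probe, its detected probe with the highest mean over all arrays. A named probe was present for 33 of the 36, and 30 passed the detection filter, out of 17711 genes with a named probe and 10806 genes tested in the series. Gpi1, Pgam1 and Eno1 had no named probe and were not analysed here. Pgk1 and Bnip3 were detected on 0 of 18 arrays and Higd1a on 1, so no comparison was made for them. The genes tested were 13 glycolytic enzymes and 17 others.

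Glycolysis splits glucose to pyruvate in the cytosol, and lactate dehydrogenase turns pyruvate into lactate, which lets the pathway run without oxygen. HIF is a transcription factor whose alpha subunit is marked for destruction by oxygen-dependent prolyl hydroxylases, so that it builds up when oxygen is scarce and switches on glucose transporters, glycolytic enzymes and other genes. In macrophages and neutrophils the same genes also respond to inflammatory signals, and HIF-1 is known to support their function at inflamed sites.

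Sterile objects were placed in the abdomen of MacGreen mice, a line whose myeloid cells carry EGFP under control of the Csf1r promoter. The mice were C57Bl/6J, 10 to 16 weeks old. Cells of the cavity were taken by lavage at day 2, 4, 7 and 14 after surgery, and at day 0 from mice without an implant. Cells of the tissue capsule around the object were released by collagenase at day 7, 14, 21 and 28, so each of the 9 groups was sorted for bright EGFP but only the 4 capsule groups were digested. Each group had 2 arrays of RNA from pooled sorted cells; the labels do not say that these came from separate animals, so the p-values measure the spread between arrays, which may be technical. Csf1r is also transcribed in cells other than macrophages, and the gate on EGFP does not separate macrophages from neutrophils or monocytes.

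All values are normalised log2 intensities, on which a difference of 1 is a 2-fold difference; levels of different probes are not on a common scale and are not compared. Arrays of the same group correlated at 0.989 to 0.993 and arrays of different groups at 0.88 to 0.988 over genes. The later capsule groups were hybridised on slides 3 and 4, where mean raw intensity was 455 to 528. It was 585 to 1053 on the 12 arrays of the first slides, which carried the day 7 capsule and each cavity group. More probes were detected per array on slides 3 and 4 (18311 to 19345) than on the first slides (16442 to 17559). Myeloid markers were checked first. The 7 measured markers of 9 (among them Itgam and Lyz2) were detected on both arrays of each group; Csf1r and Cd68 were not analysed here. Because the samples are bulk RNA, fewer cells of a type and less RNA per cell cannot be told apart.

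Promoter windows of 250 bases before the transcription start were read from RefSeq (GRCm38.p6) to show the letters that the best-known HIF target sites share, ACGTG or GCGTG on either strand. Of the 36 genes, 33 had a window and 29 of these held at least 1 match (87.9%), against 41.5% of 27025 genes and 58.7% of the 8784 tested genes with a window. ACGTG itself was in 19 (57.6%), against 18.5% of all genes and 24.5% of tested genes. A gene counted if any of its windows matched. By window, 80.4% of the 46 windows of members held a match, against 38.6% of all 32851 windows. The members were chosen by name for a tie to glycolysis or HIF, so these shares are not a test of that tie. Matches were in 14 of 17 glycolytic enzymes and in 15 of 16 other members. A match describes the letters in the window and is not evidence of binding. The windows shown belong to Slc2a1, Egln3, Ankrd37 and Adm, members from 3 roles that were higher in capsule cells at both days, and to Eno2, whose difference was also large but whose window held no match. Each runs 5′ to 3′ on the strand of the gene, and capitals mark the matches.
Slc2a1, chr4:119108495-119108744, plus strand: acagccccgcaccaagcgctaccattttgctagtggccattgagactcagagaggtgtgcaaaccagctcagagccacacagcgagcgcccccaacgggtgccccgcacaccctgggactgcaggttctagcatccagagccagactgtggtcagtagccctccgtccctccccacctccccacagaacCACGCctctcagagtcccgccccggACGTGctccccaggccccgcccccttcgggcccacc
Egln3, chr12:54203875-54204124, minus strand: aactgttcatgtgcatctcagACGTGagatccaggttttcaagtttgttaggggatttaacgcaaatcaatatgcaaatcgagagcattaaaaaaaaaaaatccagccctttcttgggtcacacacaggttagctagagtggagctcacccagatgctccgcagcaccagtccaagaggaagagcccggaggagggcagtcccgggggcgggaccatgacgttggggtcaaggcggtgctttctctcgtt
Ankrd37, chr8:45999851-46000100, minus strand: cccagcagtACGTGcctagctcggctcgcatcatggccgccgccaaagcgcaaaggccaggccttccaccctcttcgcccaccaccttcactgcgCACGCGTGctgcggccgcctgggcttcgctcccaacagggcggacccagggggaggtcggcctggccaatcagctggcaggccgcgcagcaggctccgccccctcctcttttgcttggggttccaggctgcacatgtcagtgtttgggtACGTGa
Adm, chr7:110627407-110627656, plus strand: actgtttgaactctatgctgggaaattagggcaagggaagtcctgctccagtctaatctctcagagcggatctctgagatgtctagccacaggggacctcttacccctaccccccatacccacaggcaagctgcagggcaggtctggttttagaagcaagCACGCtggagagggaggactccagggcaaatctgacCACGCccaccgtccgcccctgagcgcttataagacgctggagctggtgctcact
Eno2, chr6:124769674-124769923, minus strand: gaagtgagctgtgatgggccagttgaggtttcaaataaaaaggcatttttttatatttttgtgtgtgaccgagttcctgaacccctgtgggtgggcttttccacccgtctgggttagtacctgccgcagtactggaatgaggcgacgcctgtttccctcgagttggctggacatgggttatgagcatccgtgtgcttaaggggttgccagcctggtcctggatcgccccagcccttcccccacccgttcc
The Slc2a1 window held 1 ACGTG and 1 GCGTG (read here as CACGC), 36 and 61 bases before the start. The Ankrd37 window held 4 matches, a pair of which overlap, and the Adm window held 2, both GCGTG.

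**Figure D1:**
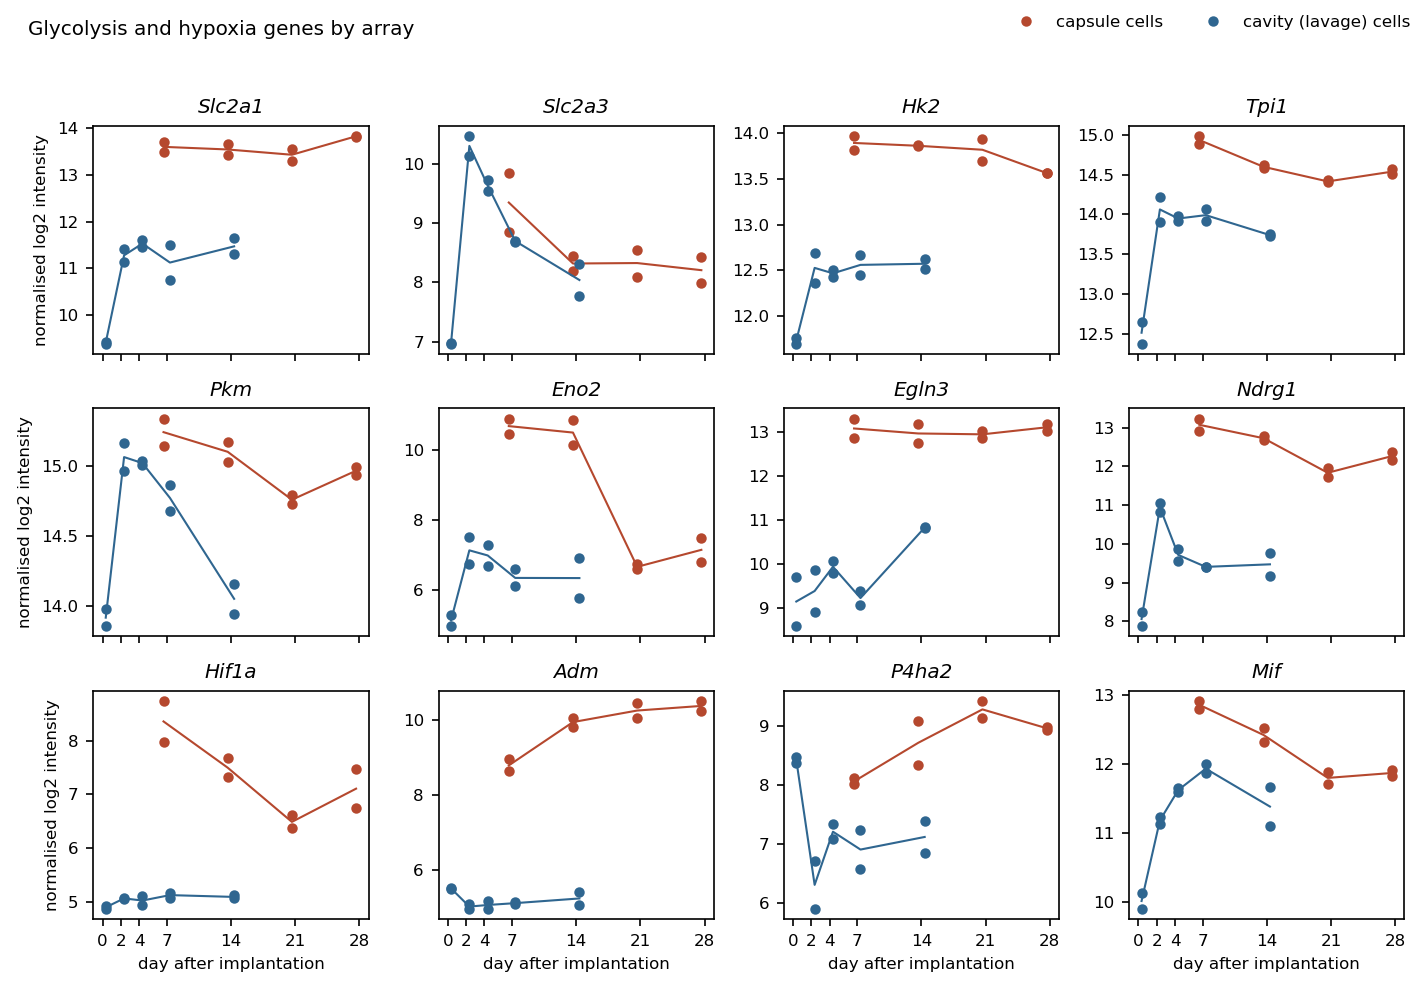
Normalised log2 intensity (y axis) of 12 members on each of the 18 arrays (points) against day after implantation (x axis, day 0 without an implant), in capsule cells (red) and cavity cells (blue), with lines through the mean of the 2 arrays of each group; the y axes do not start at 0. Slc2a1 sits at 13.30 to 13.84 on the 8 capsule arrays and at 9.39 to 11.64 on the 10 cavity arrays.

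The first question was what happened in cavity cells after the object was placed. At day 2, glucose transport, glycolytic and regulatory genes were higher than in cavity cells of mice without an implant. Of the 30 tested members, 16 were higher and 3 lower at day 2 than at day 0 at an adjusted p of 0.05 (limma, Benjamini-Hochberg over all genes), while 25% of all genes were called, 13.3% as higher and 11.7% as lower. The median difference was 0.54 over the 13 glycolytic enzymes, 0.48 over the 17 others (0.24 with genes not detected in one group set at their bound) and 0.04 over all genes. No cause was tested, and neutrophil markers moved with this comparison: 5 of 9 measured were higher at day 2, with a summed level of 52705 to 76349 at day 2 and 8450 to 8856 at day 0; Mmp8 was not detected at day 2. Resident macrophage markers moved the other way, 8 of 8 lower, with sums of 12432 to 18049 at day 2 and 150237 to 152518 at day 0. Over members detected on all 18 arrays, the median was 0.48 for 12 glycolytic enzymes and 0.96 for 14 others, and 0.05 over all such genes.

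Slc2a3 encodes GLUT3, a high-affinity glucose transporter. It had 10.46 and 10.13 at day 2, against 6.97 and 6.97 at day 0, a difference of 3.32 (SE 0.29, 10.0-fold, adjusted p = 1.66e-06). Both day 2 arrays lay far above both day 0 arrays. Slc2a1 encodes GLUT1, the basal glucose transporter of most cells. It had 11.42 and 11.14 at day 2, against 9.43 and 9.39 at day 0, a difference of 1.87 (SE 0.21, adjusted p = 2.03e-05), and the groups did not overlap. Slc16a3, the lactate exporter MCT4, was dim, at 6.26 and 6.23 at day 2 and 6.19 and 6.42 at day 0, and was not called in any of the 11 comparisons.

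The enzymes did not move as one. Aldoc, an aldolase, had 8.79 and 8.65 at day 2, against 6.45 and 6.09 at day 0, and was 2.45 higher (SE 0.25, adjusted p = 6.36e-06). Tpi1, triose phosphate isomerase, had 14.22 and 13.91 at day 2, against 12.37 and 12.65 at day 0, and was 1.55 higher (SE 0.14, adjusted p = 2.14e-06). Pkm, pyruvate kinase, had 15.16 and 14.97 at day 2, against 13.97 and 13.85 at day 0, and was 1.15 higher (SE 0.14, adjusted p = 2.88e-05). For all 3, every day 2 array was above every day 0 array. Eno2, a neuronal-type enolase, was detected on both day 2 arrays (7.51 and 6.74) and on neither day 0 array, so it was at least 2.77-fold higher (adjusted p = 0.0017). Hk2, Pfkp, Ldha and Aldoa were 0.42 to 0.79 higher, of which Aldoa lost its call when only the 12 arrays on slides 1 and 2 were fitted, both with a replicate block (adjusted p = 0.107) and without it (adjusted p = 0.0868). The muscle-type phosphofructokinase Pfkm fell, with 8.44 and 8.87 at day 2 against 9.93 and 10.19 at day 0, a difference of -1.40 (SE 0.20, adjusted p = 0.000123). Hk1, Hk3, Pfkl and Gapdh did not pass. Another probe gave 1.85 for Tpi1 and 0.71 for Aldoc (adjusted p = 2.48e-06 and 0.0113), but 0.12 for Pkm and -0.33 for Pfkm (adjusted p = 0.771 and 0.592), and those of Pfkp did not pass, so the calls of Pkm, Pfkm and Pfkp rest on 1 probe each. Those other probes of Pkm and Pfkm were dim, detected on 12 and 7 of 18 arrays. For Pfkp, a probe detected on all 18 arrays gave 0.69 (limma adjusted p = 0.0968). Ldha lost its call without replicate 1 of either day, and Aldoa without any 1 of the 4 arrays.

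The regulators of flux were called as higher on the probes used. Pfkfb4, a bifunctional enzyme that sets fructose 2,6-bisphosphate, had 12.06 and 11.84 at day 2, against 10.06 and 10.10 at day 0, and was 1.87 higher (SE 0.18, adjusted p = 4.97e-06). Its relative Pfkfb3 had 10.52 and 10.30 at day 2, against 9.003 and 9.17 at day 0, and was 1.32 higher (SE 0.15, adjusted p = 2.48e-05). Pdk1, a pyruvate dehydrogenase kinase, had 11.52 and 11.16 at day 2, against 10.69 and 10.48 at day 0. Its difference was smaller, at 0.75 (SE 0.22, limma adjusted p = 0.0205). The arrays of the groups did not overlap for any of these genes, but Pdk1 lost its call without day 2 replicate 1 or day 0 replicate 2. Another probe did not pass for Pfkfb4 (0.49, adjusted p = 0.113) or Pdk1 (adjusted p = 0.999), so these calls rest on 1 probe each.

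Among the other HIF targets, Ndrg1, a stress-induced cytosolic protein, had 11.05 and 10.82 at day 2, against 7.88 and 8.24 at day 0, and was 2.88 higher (SE 0.21, adjusted p = 3.24e-07). Ankrd37, an ankyrin repeat protein, had 11.11 and 11.09 at day 2, against 8.75 and 8.47 at day 0, and was 2.48 higher (SE 0.18, adjusted p = 4.22e-07). The collagen prolyl hydroxylase subunit P4ha2 went the other way. It had 6.70 and 5.89 at day 2, against 8.37 and 8.47 at day 0, a difference of -2.12 (SE 0.30, adjusted p = 0.000126), and all day 2 arrays were below all day 0 arrays. The mitophagy receptor gene Bnip3l was lower by 0.48, a call lost on the 12 arrays with the replicate block (adjusted p = 0.0663) or without it (adjusted p = 0.0539). The cytokine gene Mif had 11.23 and 11.13 at day 2, against 10.12 and 9.90 at day 0, and was 1.17 higher (SE 0.17, adjusted p = 0.000199).

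The oxygen-sensing genes themselves were not called at day 2. Egln1, the main HIF prolyl hydroxylase, had 10.18 and 10.03 at day 2 and 10.41 and 10.37 at day 0. Egln3, a hydroxylase that is itself a HIF target, had 9.87 and 8.92 at day 2 and 9.71 and 8.59 at day 0, so its 2 arrays of a group differed by more than the groups did. Hif1a and Adm were not detected on any cavity array.

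**Figure D2:**
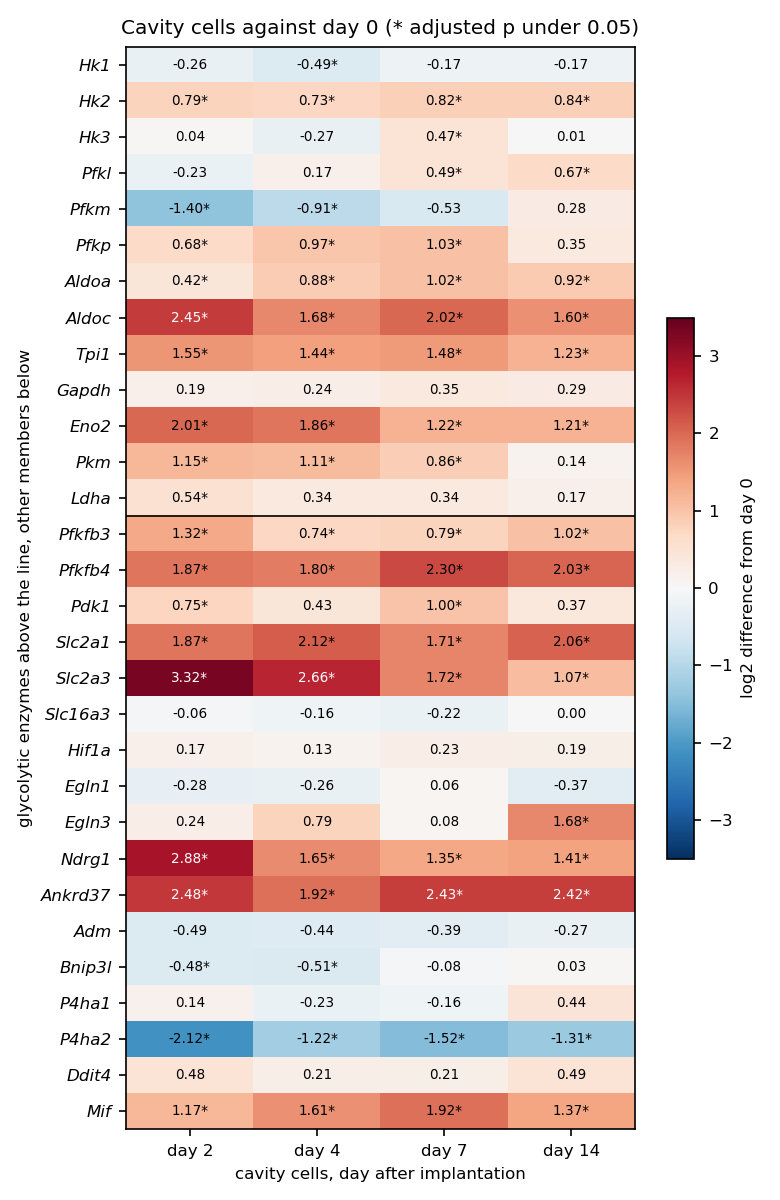
Difference in normalised log2 intensity from cavity day 0 (colour and printed value) for each tested member (rows, by role) in cavity cells at day 2, 4, 7 and 14 (columns, low to high day); marks show members past an adjusted p of 0.05. Slc2a3 and Ndrg1 have their highest values at day 2, 3.32 and 2.88, and P4ha2 is negative at each day.

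Members were also higher than at day 0 on the later cavity days. The 4 comparisons share the day 0 arrays, so they are not independent of each other. At day 4, 14 members were higher and 4 lower than at day 0, beside 28% of all genes called (15.4% higher and 12.6% lower); median scaling moved the higher share of calls over all genes to 69.6%, against 54.9%, and gave 14 members higher and 2 lower. At day 7, 17 were higher and 1 lower, beside 28.6% (15.1% higher and 13.5% lower). At day 14, 14 were higher and 1 lower, beside 19.8% (10.3% higher and 9.5% lower), and there median scaling moved the higher share over all genes to 13.8%, against 52.1%, but left 13 members higher and 2 lower. The glycolytic median was 0.73 at day 4, 0.82 at day 7 (0.68 with bounds) and 0.35 at day 14; that of the others was 0.43, 0.23 and 0.49 (0.44 with bounds at day 14). Markers of other cells moved with these comparisons too, and their part was not tested. Neutrophil markers summed to 53153 to 67833 at day 4, 5757 to 6210 at day 7 and 3155 to 3857 at day 14, against 8450 to 8856 at day 0, with 5, 6 and 3 of 9 higher and 0, 1 and 1 lower. Cell cycle genes, 7 of 7 higher at day 4 and at day 7, summed to 8493 to 11395, 12427 to 13232 and 3246 to 3703 at day 4, 7 and 14, against 3233 to 3334 at day 0. Resident macrophage markers summed to 30706 to 46216, 17062 to 20635 and 40531 to 52172 at those days, and 6, 7 and 5 of the 8 were lower than at day 0.

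Slc2a3 was highest early. Its differences from day 0 were 3.32, 2.66, 1.72 and 1.07 at day 2, 4, 7 and 14, and at day 14 its arrays read 8.32 and 7.76. The day 14 call ended without either day 0 array or without day 14 replicate 1, and with median scaling (adjusted p = 0.125). Against day 2 it was lower by 2.26 at day 14 (SE 0.29, adjusted p = 5.63e-05). Ndrg1 had a like course, at 9.55 and 9.87 on day 4, 9.41 and 9.40 on day 7 and 9.17 and 9.77 on day 14. It was 1.47 lower at day 14 than at day 2, and Pkm was 1.02 lower (adjusted p = 0.00013 and 9.17e-05). Pkm was 13.94 and 14.16 at day 14, which did not pass against day 0.

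Other members differed from day 0 by a like amount at day 14. Ankrd37 was 2.42 above day 0 at day 14, Slc2a1 2.06, Pfkfb4 2.03 and Tpi1 1.23, and with quantile normalisation none of these 4 was called between day 14 and day 2 on the probe used. Other probes were called there, as 1.41 higher for Pfkfb4 and 0.65 lower for Tpi1 (adjusted p = 0.000242 and 0.011). With median scaling, Ankrd37 and Tpi1 were called there, as lower (adjusted p = 0.0269 and 0.00564). Mif was 1.92 above day 0 at day 7, with 11.87 and 12.002, and 1.37 above it at day 14. Aldoc was 2.02 higher than day 0 at day 7 and 1.60 at day 14. Its other probe gave 0.69 and 0.27 (limma adjusted p = 0.0122 and 0.336), so the day 14 call of Aldoc rests on 1 probe. P4ha2 was below day 0 at all 4 days, by 1.22 to 2.12. Its call ended at day 4 without replicate 2 of either day and at day 14 without day 14 replicate 2, and that of Pfkm at day 4 (-0.91) without day 4 replicate 2.

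Some members were called at later days and not at day 2. Pfkl, the liver-type phosphofructokinase, had 13.58 and 13.64 at day 14, against 12.93 and 12.96 at day 0, and was 0.67 higher (SE 0.13, adjusted p = 0.00187), a call lost with median scaling (adjusted p = 0.0511). Egln3 had 10.82 and 10.85 at day 14, against 9.71 and 8.59 at day 0, and was 1.68 higher (SE 0.34, adjusted p = 0.00268). The other detected Egln3 probe gave -0.09 for this difference, so the Egln3 call rests on 1 probe. Pfkm, lower at day 2 and day 4, had 10.47 and 10.21 at day 14 and did not pass against day 0. Eno2 was at least 1.60-fold above day 0 at day 14, with 1 of 2 day 14 arrays detected, and lost its call with the replicate block (adjusted p = 0.0585). Its calls at day 7 and day 14 also ended without either day 0 array or without replicate 2 of the later day. Bnip3l, 0.51 lower at day 4, lost its call with the block too (adjusted p = 0.0507). Hk3, 0.47 higher at day 7, lost its call on the 12 arrays with the block (adjusted p = 0.075) or without it (adjusted p = 0.0583). The calls of Hk1 at day 4 (-0.49) and Hk3 at day 7 ended without any 1 of their 4 arrays. Without replicate 1 of either day, Bnip3l at day 4 and Pfkl at day 7 lost theirs, Bnip3l also without day 4 replicate 2.

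Between day 14 and day 2 of the cavity, 5 members were higher and 4 lower, beside 25.9% of all genes called (12.7% higher and 13.2% lower). This count depended on the scaling: with median scaling, 3 were higher and 13 lower, and the higher share of calls over all genes was 12.6%, against 48.9%. Pfkm (1.68), Pfkl (0.90) and Egln3 (1.44) were among the 5 called as higher on the probes used, and Egln3 lost its call without day 2 replicate 2. Aldoc was lower by 0.86, a call lost without either day 2 array or without day 14 replicate 2. Other probes gave 0.03 for Egln3, 0.86 for Pfkm and -0.44 for Aldoc (limma adjusted p = 0.951, 0.102 and 0.0986). The calls of Egln3, Pfkm and Aldoc thus rest on 1 probe each. Aldoa and Bnip3l lost their calls with the replicate block (adjusted p = 0.0565 and 0.0508).

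The next question was how capsule cells differed from cavity cells of the same day. At day 7, members of each role were called as higher in capsule cells, with Slc2a1 alone among the transporters. Of the 30 tested members, 20 were higher and 0 lower in capsule than in cavity cells, beside 24.1% of all genes called, 11.6% as higher and 12.5% as lower. The median difference was 0.47 over 13 glycolytic enzymes, 1.16 over 17 other members and -0.02 over all genes. With median scaling, the count was 16 higher and 1 lower, and the higher share of calls over all genes was 27%, against 48.3%.

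The filter bears on this count and on these medians. Hif1a, Adm and Ddit4 passed it on capsule groups alone, so they had to differ, and without Eno2 and these 3 the genes detected on all 18 arrays gave 16 of 26 members higher, beside 28.7% of all such genes called. Over those genes the median was 0.37 for 12 glycolytic enzymes, 0.94 for 14 other members and -0.06 for all. The groups also differed in how they were made. All 10 measured dissociation stress genes, such as Fos and Egr1, were higher in capsule cells, with a summed level of 109731 to 113115 in capsule cells and 15933 to 17508 in cavity cells at day 7. Fibroblast and mesothelial markers summed to 425 to 691 in capsule cells and 255 to 259 in cavity cells, and Pdgfra was detected in neither. Resident macrophage markers were lower in capsule cells for 5 of 8 (sums of 9374 to 9964 in capsule cells and 17062 to 20635 in cavity cells), and cell cycle genes for 6 of 7 (5212 to 6337 in capsule cells and 12427 to 13232 in cavity cells). Eosinophil and mast cell markers were lower for 4 of 5 (200 to 207 in capsule cells and 1059 to 1338 in cavity cells). The part of digestion or of other cells in the results was not tested. Both groups lay on slides 1 and 2, replicate 1 of each on slide 1, so the arrays of 1 number, given below in that order, show the difference within a slide.

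Slc2a1 had 13.71 and 13.49 in capsule cells, against 11.49 and 10.76 in cavity cells, a difference of 2.48 (SE 0.21, adjusted p = 1.94e-06), and its groups did not overlap. Slc2a3 had 9.85 and 8.84 in capsule cells and 8.69 and 8.71 in cavity cells, and did not pass. Eno2 had 10.90 and 10.47 in capsule cells, against 6.10 and 6.58 in cavity cells. It was 4.35 higher (SE 0.39, adjusted p = 2.81e-06), the widest gap among the glycolytic enzymes, with all 4 arrays well apart. Hk2, the inducible hexokinase, had 13.81 and 13.96 in capsule cells, against 12.67 and 12.45 in cavity cells, and was 1.33 higher (SE 0.14, adjusted p = 1.74e-05). Tpi1 had 14.99 and 14.89 in capsule cells, against 14.06 and 13.92 in cavity cells, and was 0.95 higher (SE 0.14, adjusted p = 0.000206). Aldoc was 1.63 higher and Hk3, a hexokinase of myeloid cells, 0.73 higher. Pfkp (0.55) and Pkm (0.47) were called as higher but lost the call with the replicate block (adjusted p = 0.0526 and 0.0578). Pfkp and Pkm also lost it without replicate 1 of either group, and Hk3 without capsule replicate 1. Hk1, Pfkl, Pfkm, Aldoa, Gapdh and Ldha did not pass.

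Hif1a, the oxygen-regulated subunit, was not detected on any of the 10 cavity arrays. It had 7.98 and 8.73 in capsule cells at day 7, against 5.17 and 5.08 in cavity cells, and was at least 6.34-fold higher. Of 3 Hif1a probes, the other 2 were detected on 1 and 0 of 18 arrays, so this reading rests on 1 probe. Egln3 had 12.87 and 13.32 in capsule cells, against 9.39 and 9.08 in cavity cells, and was 3.86 higher (SE 0.34, adjusted p = 2.09e-06), while its other probe gave 1.09 (adjusted p = 0.00513). Egln1 had 11.36 and 11.43 in capsule cells, against 10.46 and 10.44 in cavity cells, and was 0.95 higher (SE 0.17, adjusted p = 0.00113).

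Adm, which encodes the vasodilator peptide adrenomedullin, had 8.63 and 8.96 in capsule cells, against 5.15 and 5.08 in cavity cells where it was not detected, and was at least 8.58-fold higher. Ndrg1 had 13.23 and 12.91 in capsule cells, against 9.41 and 9.40 in cavity cells, and was 3.67 higher (SE 0.21, adjusted p = 3.22e-08). Ankrd37 had 12.77 and 12.97 in capsule cells, against 11.21 and 10.88 in cavity cells, and was 1.83 higher (SE 0.18, adjusted p = 8.39e-06). For Ndrg1 and Ankrd37 every capsule array was above every cavity array. Ddit4, an inhibitor of mTORC1, had 8.45 and 9.01 in capsule cells, against 5.03 and 6.08 in cavity cells, of which 1 was detected, and was 3.17 higher. No p is given for Hif1a, Adm and Ddit4 between capsule and cavity, because the filter kept them on their capsule arrays. P4ha1 and P4ha2 were 1.39 and 1.16 higher, and P4ha2 lost its call without replicate 2 of either group. Mif had 12.91 and 12.81 in capsule cells, against 11.87 and 12.002 in cavity cells, and was 0.93 higher (SE 0.17, adjusted p = 0.00142). Of the flux regulators, Pdk1 (12.32 and 12.24 in capsule cells, 11.51 and 11.67 in cavity cells) and Pfkfb3 (10.24 and 10.47 in capsule cells, 9.89 and 9.87 in cavity cells) were called, by 0.69 and 0.48, and lost the call without any 1 of the 4 arrays, and on the 12 arrays with the replicate block (adjusted p = 0.063 and 0.0595) or without it (adjusted p = 0.0501 and 0.0552). Another Pdk1 probe gave 0.43 (adjusted p = 0.378).

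**Figure D3:**
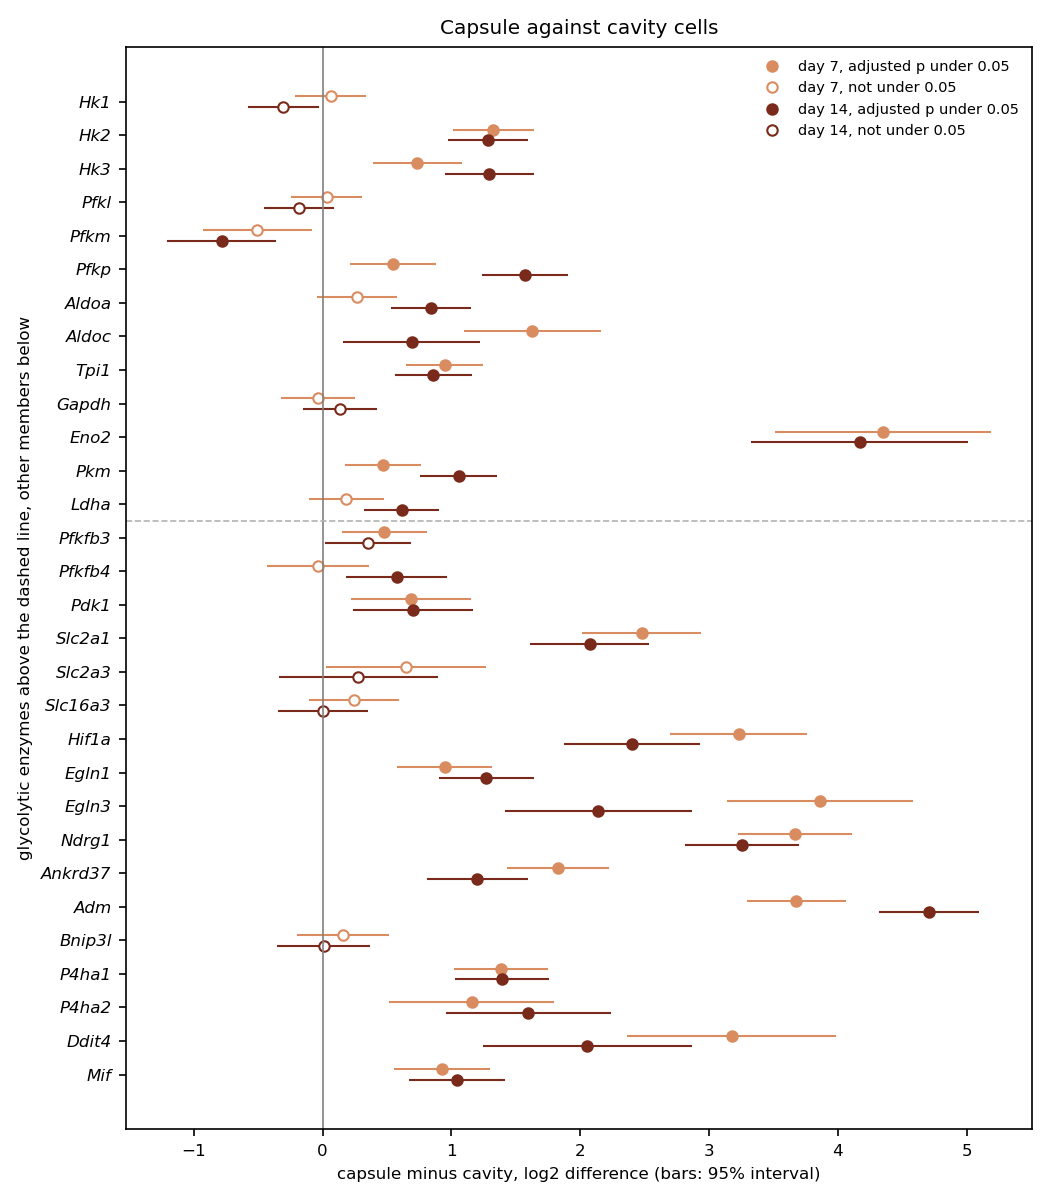
Capsule minus cavity difference in normalised log2 intensity (x axis) for each tested member (y axis, by role) at day 7 and day 14, with 95% confidence intervals as bars, filled where the adjusted p was under 0.05; the fitted values of Hif1a and Adm are not bounds. Eno2, Adm, Ndrg1, Egln3 and Hif1a lie furthest to the right, and Pfkm is left of 0 at day 14. The filter kept Hif1a, Adm and Ddit4 on capsule groups alone, so their filled points and bars are not a test.

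At day 14, members of each role were higher in capsule cells. Of 30 members, 22 were higher and 1 lower in capsule than in cavity cells, beside 35.3% of all genes called, 16.8% as higher and 18.4% as lower. The median difference was 0.84 over glycolytic enzymes, 1.27 over the others and -0.02 over all genes. Of the genes detected on all 18 arrays, 18 of 26 members were higher and 1 lower, beside 38.7% of such genes; over them the median was 0.77 for 12 glycolytic enzymes, 1.12 for 14 other members and -0.05 for all. Capsule day 14 was alone on slide 3, so slide and group cannot be told apart. Dissociation stress genes were higher for 10 of 10, with sums of 168512 to 168721 in capsule cells and 18129 to 20447 in cavity cells; their part in the result was not tested. Fibroblast and mesothelial markers summed to 1837 to 2055 in capsule cells and 245 to 292 in cavity cells, where Col1a1, Dcn and Pdgfra were not detected. Resident macrophage markers summed to 28143 to 29345 in capsule cells and 40531 to 52172 in cavity cells, 5 of 8 being lower and 1 higher.

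Of the members higher at day 7, 19 were also higher at day 14, which is 95% of the day 7 list and 86.4% of the day 14 list; over all genes, those called as higher at both days were 67.3% of the day 7 list and 46.5% of the day 14 list. The 19 include Hif1a, Adm and Ddit4, which the filter kept on capsule groups alone, so their overlap is not a result. An overlap without them was not counted. Pfkfb3 was called at day 7 alone, and Aldoa, Ldha and Pfkfb4 at day 14 alone. A call on one day alone does not show that the days differ, which the interaction tested.

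Adm had 10.07 and 9.83 in capsule cells, against 5.41 and 5.07 in cavity cells where it was not detected, and was at least 17.7-fold higher. Hif1a had 7.68 and 7.32 in capsule cells, against 5.12 and 5.07 in cavity cells, and was at least 3.23-fold higher. The filter kept both on capsule groups alone, so the separation of their capsule and cavity arrays is not a result. Ndrg1 had 12.67 and 12.78 in capsule cells, against 9.17 and 9.77 in cavity cells, and was 3.25 higher (SE 0.21, adjusted p = 8.08e-08). Egln3 had 13.19 and 12.77 in capsule cells, against 10.82 and 10.85 in cavity cells, and was 2.14 higher (SE 0.34, adjusted p = 0.000235). Egln1 had 11.21 and 11.37 in capsule cells, against 9.84 and 10.20 in cavity cells, and was 1.27 higher (SE 0.17, adjusted p = 6.81e-05). P4ha1 had 12.10 and 12.09 in capsule cells, against 10.83 and 10.58 in cavity cells, and was 1.39 higher (SE 0.17, adjusted p = 2.93e-05).

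Among the enzymes, Eno2 had 10.13 and 10.87 in capsule cells, against 5.77 and 6.90 in cavity cells, of which 1 was detected, and was 4.17 higher (SE 0.39, adjusted p = 2.65e-06). Pfkp, the platelet-type phosphofructokinase, had 12.34 and 12.20 in capsule cells, against 10.58 and 10.81 in cavity cells, and was 1.57 higher (SE 0.16, adjusted p = 4.35e-06). Hk2 had 13.85 and 13.86 in capsule cells, against 12.63 and 12.52 in cavity cells, and was 1.28 higher (SE 0.14, adjusted p = 1.35e-05). In all 3 the arrays of the groups were apart. Aldoa, the most widely used aldolase, and Ldha, lactate dehydrogenase A, were 0.84 and 0.61 higher (adjusted p = 0.000506 and 0.00313). Pfkm had 9.67 and 9.44 in capsule cells, against 10.47 and 10.21 in cavity cells, and was the 1 member that fell, by 0.78 (SE 0.20, adjusted p = 0.00678); the call ended without cavity replicate 1 or capsule replicate 2. Other probes gave 0.34 for Pfkm and -0.13 for Aldoc (adjusted p = 0.51 and 0.624), so these calls rest on 1 probe each. Aldoc was 0.69 higher on its probe, a call lost without any 1 of the 4 arrays. Gapdh was among those that did not pass. Its probe reached a raw intensity of 60120, and the highest of any probe was 71532. Whether this bore on its difference was not tested. Its other probes gave 0.20 and 0.08 (limma adjusted p = 0.192 and 0.629).

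Slc2a1 had 13.67 and 13.42 in capsule cells, against 11.64 and 11.30 in cavity cells, and was 2.07 higher (SE 0.21, adjusted p = 6.13e-06). Pfkfb4 had 12.82 and 12.55 in capsule cells, against 12.11 and 12.11 in cavity cells, and was 0.58 higher (SE 0.18, adjusted p = 0.0252). Pdk1 had 11.80 and 11.52 in capsule cells, against 10.58 and 11.34 in cavity cells, and was 0.70 higher (SE 0.22, adjusted p = 0.0225). In all 3 the capsule arrays lay above the cavity arrays, with the narrowest gap for Pdk1. Pdk1 and Pfkfb4 lost their calls without replicate 1 of either group, Pfkfb4 also without cavity replicate 2, and another Pdk1 probe gave 0.03 (adjusted p = 0.95). Mif had 12.32 and 12.53 in capsule cells, against 11.10 and 11.67 in cavity cells, and was 1.04 higher (SE 0.17, adjusted p = 0.000386).

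Whether the capsule minus cavity difference itself changed between the days was tested as an interaction. Of 30 members, 2 had a larger difference at day 14 and 1 a smaller one, beside 11.5% of all genes called (4.66% larger and 6.81% smaller). Over all genes the higher share of these calls was 40.6%, and 74.2% with median scaling, which called 4 members as larger and 0 as smaller. Pfkp was 1.57 higher in the capsule at day 14 and 0.55 at day 7, an increase of 1.02 (SE 0.22, adjusted p = 0.00903). The call was lost with the compared arrays alone (adjusted p = 0.0549), and another Pfkp probe gave 1.16 (adjusted p = 0.0855). Adm was the other member called as larger, but its cavity values at both days are below background, so the size of its difference at either day is not measured. Egln3 changed by -1.72 (SE 0.47, adjusted p = 0.0319), with its cavity arrays at 10.82 and 10.85 at day 14 and 9.39 and 9.08 at day 7. The other Egln3 probe gave 0.57, and 6 of 8 left-out arrays ended the Egln3 call, so its direction is not settled.

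**Figure D4:**
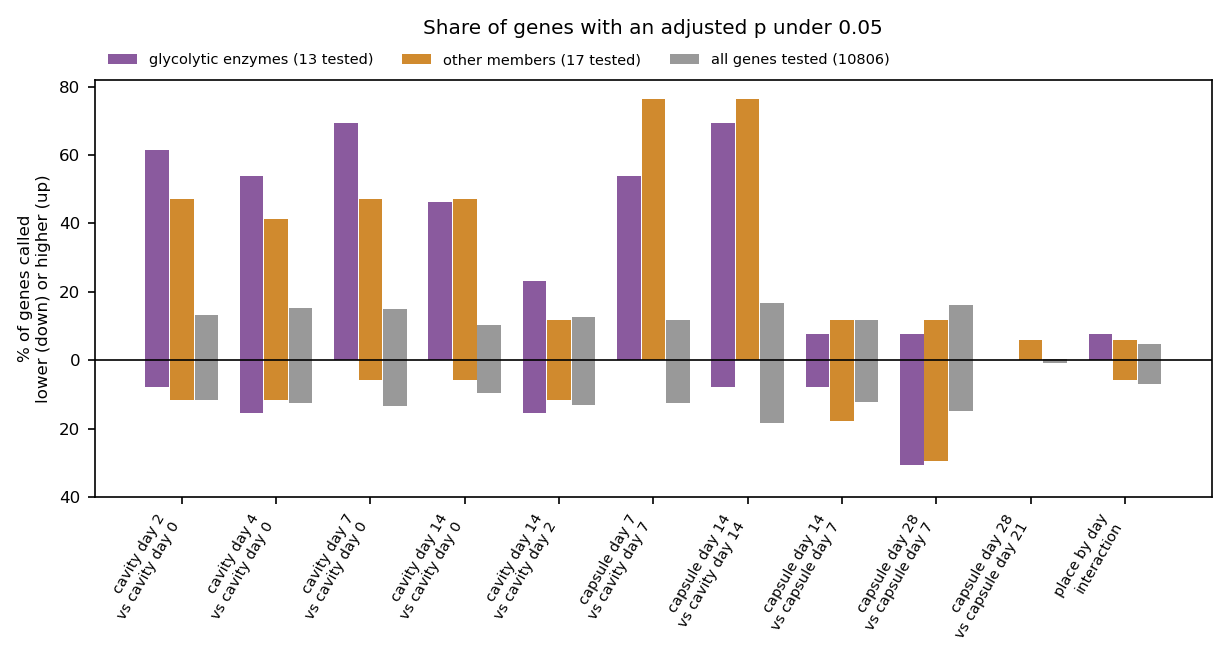
Percent of genes called at an adjusted p of 0.05 (y axis, higher upward and lower downward) in each comparison (x axis), for the 13 tested glycolytic enzymes, the 17 other tested members and all 10806 tested genes. Both sets of members stand above all genes as higher in the 4 comparisons with day 0 and in both capsule comparisons with the cavity.

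The last question was how the capsule cells changed as the capsule aged. At day 14 against day 7, 3 members were higher and 4 lower, beside 23.9% of all genes called (11.8% higher and 12.1% lower), so the members' share was close to the background (23.3%). Median scaling gave 1 higher and 7 lower, with the higher share over all genes at 36.3%, against 49.5%. At day 28 against day 7, 3 were higher and 9 lower, beside 31.2% of all genes called (16.2% higher and 15% lower); median scaling gave 1 higher and 11 lower, with the higher share over all genes at 35.7%, against 52%. Between day 14 and day 7, Adm (1.16), P4ha1 (0.61) and Aldoa (0.47) were higher, and Aldoc (-1.36), Slc2a3 (-1.03), Hif1a (-0.86) and Ankrd37 (-0.63) lower; of these, Adm and Aldoc kept their calls without any 1 array. At day 28 against day 7, the median over glycolytic enzymes was -0.23, over the other members -0.15 and over all genes 0.01. The later capsule arrays were on slides 3 and 4 and those of day 7 on slides 1 and 2, so slide and day cannot be told apart here. Fibroblast and mesothelial markers summed to 1519 to 1626 at day 28 and 425 to 691 at day 7, resident macrophage markers to 19766 to 22985 at day 28 and 9374 to 9964 at day 7, and dissociation stress genes to 129655 to 139146 at day 28 and 109731 to 113115 at day 7. Of these lists 2 of 4, 2 of 8 and 4 of 10 were higher, and 1 resident macrophage marker was lower. Neutrophil markers summed to 2072 to 3022 at day 28 and 6065 to 9085 at day 7, and cell cycle genes to 3054 to 3743 at day 28 and 5212 to 6337 at day 7, with 5 of 9 and 5 of 7 lower. Their part in the results was not tested.

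Eno2 stood at 10.90 and 10.47 on day 7 and at 10.13 and 10.87 on day 14, then at 6.58 and 6.73 on day 21 and 6.80 and 7.49 on day 28. It fell by 3.54 at day 28 against day 7 (SE 0.39, adjusted p = 3.4e-05), and its day 28 arrays overlapped the range of the cavity arrays. Aldoc had 8.31 and 7.88 at day 28, against 10.19 and 9.64 at day 7, and was lower by 1.82 (adjusted p = 0.00016). Hif1a had 7.47 and 6.74 at day 28, against 7.98 and 8.73 at day 7, and was lower by 1.25 (adjusted p = 0.00201). Pdk1 fell by 1.08, Mif by 0.99, Slc2a3 by 1.14 and Ndrg1 by 0.81. Other probes gave -0.55 for Pdk1 and -0.32 for Ndrg1 (limma adjusted p = 0.215 and 0.482), so these calls rest on 1 probe each. Another Aldoc probe passed at -0.94 (limma adjusted p = 0.00196). Another Pfkfb4 probe was 1.46 higher (limma adjusted p = 0.000273), while the Pfkfb4 probe used did not pass. Adm rose, with 10.51 and 10.26 at day 28 against 8.63 and 8.96 at day 7, a difference of 1.59 (SE 0.18, adjusted p = 4.39e-05). P4ha2 (0.90) and Pfkp (0.59) were also higher, and Hk1 and Tpi1 lower, each by 0.40. The calls of Slc2a3, Ndrg1, Pfkp, P4ha2, Hk1 and Tpi1 each ended without capsule day 28 replicate 2, and each but Pfkp without capsule day 7 replicate 1. Slc2a1 stayed between 13.30 and 13.84 on the 8 capsule arrays, Egln3 between 12.77 and 13.32 and Hk2 between 13.56 and 13.96, and none of these 3 was called in a comparison between capsule days on the probe used; the other Egln3 probe was 0.95 higher at day 28 than at day 7 (adjusted p = 0.0101).

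At day 28 against day 21, both on slide 4, 1 member was higher and 0 lower, beside 0.935% of all genes called (0.25% higher and 0.685% lower). It was Ankrd37, with 12.73 and 12.71 at day 28 against 11.95 and 11.75 at day 21, a difference of 0.87 (SE 0.18, adjusted p = 0.0387); the call ended when any 1 of the 4 arrays was left out.

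The wider pathway gave other groups to set beside the members. Of 21 tested further HIF targets, 12 were higher and 1 lower in capsule than in cavity cells at day 7 (median 0.88), and 11 higher and 1 lower at day 14 (median 0.97), beside the 24.1% and 35.3% of all genes called. Some passed the filter through capsule groups. Of the 10 detected on all 18 arrays, 6 were higher at day 7 and 4 at day 14, and 0 lower. Over all genes detected on all 18 arrays, 28.7% were called at day 7 and 38.7% at day 14. The day 14 count of these 10 targets was thus near that background. Vegfa, the angiogenic growth factor, was 3.52 higher at day 7 and 4.48 at day 14 (adjusted p = 8.02e-07 and 6.69e-08), and 4.00 higher at cavity day 2 than at day 0 (adjusted p = 2.75e-07), where 1 of 2 day 0 arrays was detected. Lox, the collagen cross-linking oxidase, was undetected in cavity cells and at least 27.8-fold higher in capsule cells at day 7 and 19.6-fold at day 14; fibroblasts also make it, and their part was not tested. Ak4, a mitochondrial adenylate kinase, was 3.17 higher at day 7 and at least 8.51-fold higher at day 14. At cavity day 2 against day 0, 5 of the 21 were higher and 3 lower (38.1% called), beside 25% of all genes.

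Genes that branch from or border on glycolysis were counted in the same way. Of 16 tested neighbours, 2 were higher and 7 lower at cavity day 2 than at day 0, 2 higher and 7 lower in capsule than in cavity cells at day 7, and 2 higher and 4 lower at day 14; these are 56.2%, 56.2% and 37.5% called, beside 25%, 24.1% and 35.3% of all genes, so the day 14 share was near the background. Pdk4, a kinase that spares glucose in fasting, was lower by 4.06 at cavity day 2 (adjusted p = 5.71e-08). Gys1, glycogen synthase, was higher by 1.47 in capsule cells at day 7 and by 1.57 at day 14, and Pgm1, which links glucose 1-phosphate to glycolysis, by 1.14 and 0.96. Of 6 tested pentose phosphate genes, 1 was higher and 2 lower at cavity day 2, 0 and 2 in the capsule at day 7, and 0 and 1 at day 14, which is 50%, 33.3% and 16.7% called. Of 6 tested HIF regulators, none was called at cavity day 2 or in the capsule at day 7 (limma). At day 14 Hif3a was 0.53 higher and Vhl, the subunit that marks HIF for destruction, 1.68 lower. These are 2 of 6, beside 35.3% of all genes called at day 14, so that share was near the background.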

How the data were processed

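RNA of pooled, EGFP-sorted cells was hybridised to Illumina mouse bead arrays, 18 arrays in 9 groups. Per the file headers, the deposited file holds for each probe and array an intensity on the linear scale and a detection p-value. The authors' deposited series values are log2 and served as an alternative; the submitters' processing notes name R 2.15.3 and BeadStudio.

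Background correction and quantile normalisation used limma's neqc (version 3.58.1, R 4.3.3, offset 16). A probe was kept if some group had it detected on each of its arrays at p 0.05 (20985 of 46632). Probes with 1 symbol in the platform annotation (29976) named genes, 10 had several and 16646 none. Groups were compared with limma's lmFit and eBayes, 1 mean per group over all 18 arrays (9 residual and 4.58 prior degrees of freedom), 2-sided, with Benjamini-Hochberg adjustment over 10806 genes in each of 11 comparisons. A gene undetected on all arrays of one group is given as at least N-fold, against the lowest detected signal. The number of arrays limits the precision. The fit was tested on simulated data.

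Replicate numbers 1 and 2 match slides 1 and 2 in the 12 arrays of the cavity groups and capsule day 7, per the labels; deviations from group means correlated at -0.11 to 0.129 in 15 pairs (median -0.00723, 1 above 0.1). A fit with the replicate block was made on those arrays. The members, lists and comparisons were chosen with earlier results of these data known. Members were given array by array when among the 3 smallest p of their role in cavity day 2 against day 0, capsule against cavity at either day, or the interaction; others named singly were chosen after their values were seen. Promoter windows were RefSeq's, GRCm38.p6.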

Additional observations from a re-analysis of the deposited data

Results flagged for a closer look

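The capsule minus cavity difference of 3 of 30 tested members was called in a test of the interaction, day 14 minus day 7. Over all genes 11.5% were called, so the count of members was near the background. Pfkp increased by 1.02 (log2, limma adjusted p = 0.00903), and its means were 12.27 in capsule cells and 10.70 in cavity cells at day 14, and 11.93 in capsule cells and 11.38 in cavity cells at day 7. The call was lost with the compared arrays alone (adjusted p = 0.0549), and another Pfkp probe gave 1.16 (adjusted p = 0.0855). The fitted value for Adm was 1.03, but no cavity array detected Adm, so this is not a measured change in the difference between the places. It was lost with the compared arrays alone (adjusted p = 0.0538) and with the authors' values (adjusted p = 0.207). Egln3 changed by -1.72 (adjusted p = 0.0319), and its other probe gave 0.57 (adjusted p = 0.325). No explanation was tested.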

How the results depend on the processing

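Of 145 member calls, 101 held in each setting other than another probe, and in those settings 0 calls changed direction. Leaving aside the fits with an array left out, 3766 values kept their call status, 72 were newly called and 108 were no longer called. Counts of members called moved by over 1.5 times in 4 comparisons with settings other than a left-out array; the cause was not tested. The interaction (3 called) gave 5 with normexp at an offset of 50, 5 without background correction, 5 with a mean-dependent prior, and 1 each with the authors' values, a threshold of 0.01 and the compared arrays alone. Cavity day 14 against day 2 (9) gave 16 with median scaling. Median scaling moved the median of all genes there to -0.38, and to -0.29 at cavity day 14 against day 0. Capsule day 28 against day 21 (1) gave 0 with median scaling, the authors' values, no filter, the genes detected on all arrays, a threshold of 0.01 and the compared arrays alone. Capsule day 14 against day 7 (7) gave 11 with the mean-dependent prior, 2 at 0.01 and 3 with the compared arrays alone.

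Leaving out each array gave 15 to 18 for cavity day 2 against day 0, 14 to 17 for day 4, 15 to 16 for day 7, 13 to 15 for day 14, 6 to 9 for day 14 against day 2, 15 to 18 for the capsule at day 7, 19 to 22 at day 14, 2 to 5 for capsule day 14 against day 7, 6 to 10 for day 28 against day 7, 0 to 0 for day 28 against day 21 and 1 to 3 for the interaction. Capsule day 14 against day 7 gave 4 without capsule day 7 replicate 1, 3 without its replicate 2 and 2 without capsule day 14 replicate 2; day 28 against day 7 gave 7 without capsule day 7 replicate 1 and 6 without capsule day 28 replicate 2; the interaction gave 1 without cavity day 14 replicate 2.

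With the replicate block the counts were 17, 17, 17, 14, 8 and 16 for the 5 cavity comparisons and the capsule at day 7, and the same 12 arrays without it gave 17, 18, 17, 15, 9 and 18. Beside those 12 arrays without it, the block newly called P4ha2, 0.81 higher at cavity day 14 than at day 2 (adjusted p = 0.0293), and ended the calls of Bnip3l at day 4, Eno2 at day 14, Aldoa and Bnip3l at day 14 against day 2, and Pfkp and Pkm in the capsule at day 7. Slide as a random block had a consensus correlation of -0.0631.

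Other probes kept the call status of 151 differences, newly called 14, did not call 23 that were called, and gave the opposite sign for 10: Pfkm 0.11 at cavity day 4 and 0.34 in the capsule at day 14, Egln3 -0.09 at cavity day 14 and 0.57 for the interaction, Pkm 0.01 at cavity day 14 against day 2 and 0.80 at capsule day 28 against day 7, Pfkp -0.12 in the capsule at day 7, Aldoc -0.13 in the capsule at day 14, P4ha1 -0.27 at capsule day 14 against day 7, and Hk1 0.54 at capsule day 28 against day 7. Another Gapdh probe passed against day 0 at each cavity day, by 0.38 to 0.43. The 12-array fit without the block and the restriction to genes detected on all arrays were chosen after seeing the data. Only 2 arrays per group, and signal near background for Hif1a, Adm, Eno2 and Ddit4 in cavity cells, limit what can be resolved.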
